A study of Saccharomyces cerevisiae W303 with 3 samples.

Results

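Old yellow enzymes are flavoproteins that use NADPH to reduce the carbon-carbon double bond next to a carbonyl group, as in acrolein-like aldehydes and unsaturated ketones. Budding yeast has the closely related genes OYE2 and OYE3. Nitroreductases are flavoproteins too, and FRM2 and HBN1 encode yeast proteins related to the nitroreductases of bacteria. GRE2 encodes an NADPH-dependent reductase of the short-chain dehydrogenase family, which acts on carbonyl compounds such as methylglyoxal and 3-methylbutanal and is named for its response to stress. These 5 genes, of 6252 genes on the arrays, were followed between 40 and 240 generations of continuous culture. They were chosen because the transcript of OYE3 was higher and the transcripts of FRM2 and GRE2 were lower at 240 generations, with OYE2 and HBN1 added as the closest relatives of OYE3 and FRM2. The ratios of the 5 genes are therefore a description and carry no test.

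W303 is a haploid laboratory strain of mating type a, with mutations at leu2, trp1, can1, ura3, ade2 and his3 in all samples. It was grown aerobically in minimal medium with glycerol as the main carbon source, little glucose and yeast extract, in 3 independent cultures (Replicates 1, 2 and 3), each begun from a single colony. From each culture, RNA of 40 generations and RNA of 240 generations were hybridized together to 2 two-color arrays with the dyes exchanged, so that there were 6 arrays and 3 independent ratios per gene. At 240 generations the populations differed in genotype, with HOG1 mutated in Replicates 1 and 2, MSY1 in Replicates 1 and 3 and URE2 in Replicate 2. RNA was taken from whole populations, so a change in every cell and a change in the share of cells that carry the transcript cannot be told apart. Each gene was read at 2 spots per array.

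The transcript of OYE3 was higher at 240 generations, with log2 ratios of 240 over 40 generations of 1.68, 1.77 and 1.76 for Replicates 1, 2 and 3. The 6 arrays lay between 1.66 and 1.79, all above 0. The mean was 1.74 ± 0.05 (SD, n = 3), a 3.33-fold higher signal at 240 generations. This was rank 20 from the top among the 5571 genes that were above background and tested, and only 5.28% of these genes had a smaller SD between the cultures.

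Before normalization, the OYE3 spots exceeded their local background by 932 to 1745 scanner units at 40 generations and by 2334 to 5619 at 240 generations. The 2 ranges did not overlap, in a gene chosen because it rose. The share of all genes with such separate ranges was not counted, here or for the genes below. On all 6 arrays the probe was above background at both time points, where above background means a signal more than 2 background SDs over the local background. The ratio of OYE3 thus rests on signals that were measured on both sides.

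For OYE2 the log2 ratios were -0.14, 0.19 and 0.25, in the same order of cultures. Replicate 1 was below 0 on both arrays, and Replicates 2 and 3 were above 0 on both, with a range of -0.17 to 0.29 over the 6 arrays. The mean was 0.10 ± 0.21 (SD, n = 3), so that the spread between the cultures was larger than the mean. The gene stood at rank 2180 from the top of the 5571 genes.

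**Figure D1:**
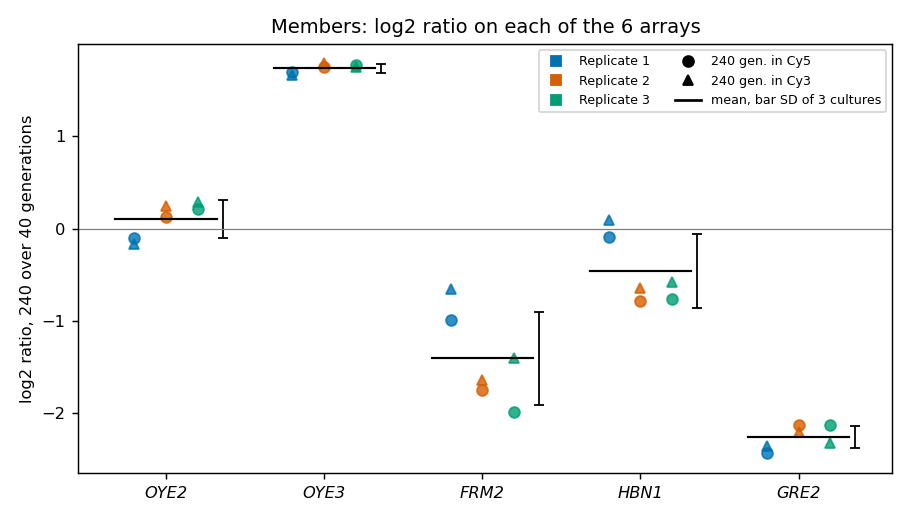
Log2 ratio of 240 over 40 generations (vertical axis) of the 5 genes on each of the 6 arrays, with color for the culture, marker for the dye of the 240-generation sample, a line at the mean and a bar for the SD of 3 cultures. OYE3 lies between 1.66 and 1.79 and GRE2 between -2.43 and -2.12 on all arrays, while Replicate 1 stands above the other cultures in FRM2 and HBN1 and below them in OYE2.

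The 2 OYE2 spots differed in brightness. On the 2 arrays of Replicate 2 the brighter spot exceeded the dimmer one 2.09-fold to 3.31-fold, and on the 4 arrays of Replicates 1 and 3 it did so 12.83-fold to 31.43-fold, at both time points. The dimmer spot exceeded its background by 49 to 957 units and the brighter one by 1259 to 2166. The median difference over the 6 arrays was 13.92-fold, against 1.23-fold for the median tested gene, and 98.8% of the tested genes had a smaller difference. The dimmer spot was nevertheless above background in 11 of its 12 readings.

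The ratio of OYE2 had the same order of cultures at the brighter spot, with Replicate 1 the lowest and below 0 at both. The brighter spot gave -0.17, 0.22 and 0.35 in Replicates 1, 2 and 3, with a mean of 0.13 ± 0.27 (SD, n = 3). The dimmer spot gave -0.10, 0.16 and 0.15, with a mean of 0.07 ± 0.15. In Replicates 1 and 3 its net signals were only 49 to 163 units. The offset of 50 units added in the background correction brings the ratios of such dim spots nearer to 0. Both spots had values on either side of 0. These values by spot were computed after the brightness had been seen.

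**Figure D2:**
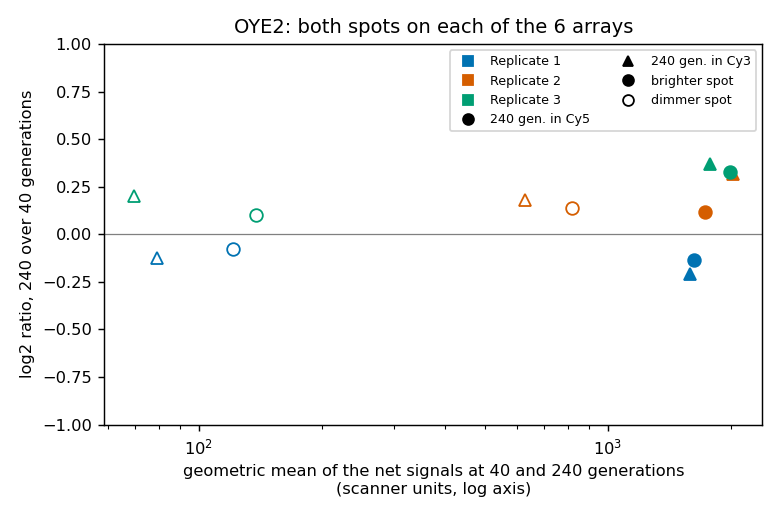
Log2 ratio of 240 over 40 generations (vertical axis) against the geometric mean of the net signals of both time points (horizontal log axis, scanner units) for the brighter (filled) and the dimmer (open) OYE2 spot on 6 arrays. The open points of Replicates 1 and 3 lie far to the left of the filled ones, and the ratios of Replicate 1 are below 0 at both spots.

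The old yellow enzyme genes diverged in every culture, but OYE3 was chosen because it rose, so that this comparison carries no test. The log2 ratio of OYE3 exceeded that of OYE2 by 1.82, 1.58 and 1.51 in the 3 cultures. The mean difference was 1.64 ± 0.16 (SD, n = 3), or 3.11-fold, and it was between 1.46 and 1.83 on the 6 arrays. The order of the cultures in this difference was the reverse of their order in OYE2, since the ratio of OYE3 hardly varied between them. OYE2 and OYE3 are similar in sequence, and whether either probe also binds the other transcript was not examined.

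FRM2 encodes a nitroreductase-like protein and is named for an effect on the repression of fatty acid synthesis. Its log2 ratios were -0.82, -1.69 and -1.69 for Replicates 1, 2 and 3. The 6 arrays were all below 0, from -1.99 to -0.66, and neither array of Replicate 1 reached the values of the other cultures. The mean was -1.40 ± 0.50 (SD, n = 3).

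The signal of FRM2 set a limit to these values. At 40 generations its spots exceeded the background by 68 to 516 units, and the probe was above background on 6 of 6 arrays. At 240 generations they exceeded it by 14 to 60 units, and the probe was above background on 0 of 6 arrays. The ranges of the time points did not overlap, in a gene chosen because it fell.

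The level of FRM2 at 240 generations is thus only bounded from above. Each array's dimmest signal above background, or the spots' own signal where that was higher, was put in place of the measured value. As a mean over the 3 cultures, the transcript was then at least 2.41-fold lower at 240 generations. This bound holds for the mean and not for each culture, since the log2 ratio of Replicate 1 was -0.82. The size of the ratio depended on how the background was treated. With the local background simply subtracted, the mean was -2.70, and it was -2.70 in the deposited log2 ratios too. The values by culture after subtraction were -2.17, -3.19 and -2.74, so that Replicate 1 had the smallest decrease there as well.

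The lower ratio in size of Replicate 1 went with a lower starting signal. At 40 generations, FRM2 had net signals, averaged over its 2 spots, of 103 and 147 units on the arrays of Replicate 1, of 218.5 and 302 in Replicate 2 and of 232 and 408 in Replicate 3. At 240 generations the net signals were 17 to 56 units in the 3 cultures. Replicate 1 was thus the lowest culture at 40 generations on both arrays. The median intensities of all gene spots at 40 generations were also lowest in Replicate 1 within the arrays with 240 generations in Cy3 (699, against 765 and 915.5) and within the other 3 arrays (863, against 1022 and 1026.5). The part of this in the FRM2 signal was not tested.

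**Figure D3:**
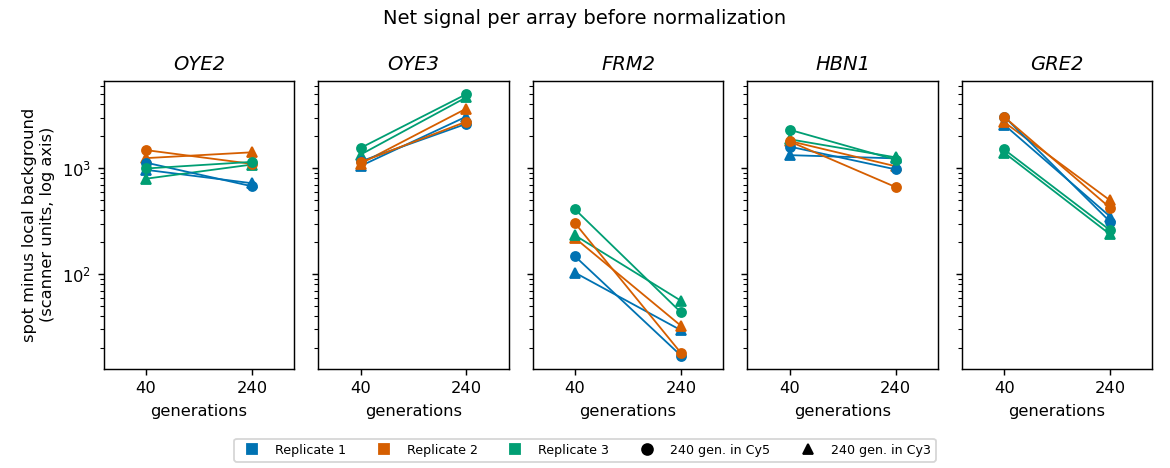
Spot intensity minus local background, averaged over the 2 spots (vertical log axis, scanner units), at 40 and 240 generations (horizontal axis) for each gene, with 1 line per array. The lines of OYE3 rise and those of FRM2 and GRE2 fall on all 6 arrays, and FRM2 ends at 17 to 56 units, where it was not above background.

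HBN1, the other nitroreductase-like gene, gave log2 ratios of 0.00, -0.71 and -0.67 for the cultures in this order. Both arrays of Replicates 2 and 3 were below 0, between -0.79 and -0.58, while the arrays of Replicate 1 gave 0.09 and -0.09. The mean was -0.46 ± 0.40 (SD, n = 3), at rank 854 from the bottom, and 84.1% of the genes had a smaller SD. Replicate 1 was therefore the culture apart in both nitroreductase-like genes.

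HBN1 gave a bright signal at both time points, with 1142 to 2810 units over background at 40 generations and 501 to 1498 at 240 generations. Unlike in FRM2, these ranges overlapped. It was above background on 5 of 6 arrays at each time point. On the array of Replicate 2 with 240 generations in Cy5, the local background of 1 spot had an SD of 23510 units in Cy5 and 26220 in Cy3, so that the gene could not pass there. The median background of this spot was 53 units in Cy5 and 70 in Cy3, and its log2 ratio was -0.73, against -0.84 at the other spot of the array.

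HBN1 had a higher log2 ratio than FRM2 in all 3 cultures, but the size of the difference was not measured, because FRM2 was not above background at 240 generations. The mean difference was 0.94 as computed here and 2.23 with simple subtraction of the background, under which HBN1 had -0.48. With the deposited log2 ratios it was 2.23 too.

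The transcript of GRE2 was lower at 240 generations in all cultures, the log2 ratios being -2.40, -2.16 and -2.22 for Replicates 1, 2 and 3. All 6 arrays were between -2.43 and -2.12. The mean was -2.26 ± 0.12 (SD, n = 3), a 4.79-fold lower signal at 240 generations, at rank 22 from the bottom of the 5571 genes. Replicate 1 was the lowest culture, while it was the highest in HBN1 and in FRM2, which was not above background at 240 generations.

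The GRE2 spots exceeded their background by 1038 to 3918 units at 40 generations and by 165 to 519 at 240 generations. These ranges did not overlap, in a gene chosen because it fell. The probe was above background at both time points on all arrays. The net signals of Replicate 3 at 40 generations, 1399 and 1502 units, were the lowest, against 2570 to 3070.5 in the other cultures. At 240 generations Replicate 3 was again the lowest, with 237 and 259.5 units, so that its ratio was like that of the other cultures.

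None of the readings of the 5 genes was saturated, and none was marked as not found by the scanner software. OYE3 is among the 767 genes that were called higher (13.8% of the genes tested), and FRM2 and GRE2 are among the 746 called lower (13.4%) by limma at an adjusted p under 0.05, together 27.2%. Median centring instead of loess gave 656 higher and 1000 lower genes. OYE2 and HBN1 did not pass. Since the genes were chosen on this contrast, these counts add nothing to the values above. A mean log2 ratio of 0.9 or more in size was measured for 7.32% of the tested genes, 2.93% in the direction of OYE3 and 4.4% in that of FRM2 and GRE2.

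Position on the chromosome was described by the protein-coding genes on either side, in the gene order of the RefSeq annotation of strain S288C. HBN1 and FRM2 lie next to each other. On the far side of FRM2 is AGP1, an amino acid permease gene, which fell (mean log2 ratio -3.33 ± 0.77, SD, n = 3, adjusted p = 0.0030 with limma). Its values were -2.62, -4.15 and -3.23, the smallest decrease being that of Replicate 1, as in FRM2 and HBN1. The next gene, KCC4, was too dim to be tested. On the far side of HBN1, FUS1, which acts in cell fusion during mating, had 0.35 ± 0.33 (adjusted p = 0.14), and RNQ1, the gene of a prion-forming protein, had -0.08 ± 0.12 (adjusted p = 0.60).

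None of the neighbors of GRE2, which was itself chosen because it fell, was called lower. ZPS1, which is induced when zinc is scarce, rose (mean log2 ratio 1.21 ± 0.40, SD, n = 3, adjusted p = 0.0097 with limma), and so did DCP1, the decapping enzyme gene (0.48 ± 0.07, adjusted p = 0.026). FRE7 (0.24 ± 0.06) and SPT20 (0.06 ± 0.19) did not pass. Beside OYE3, the mitochondrial ribosomal protein gene MRPL40 (0.82 ± 0.10, adjusted p = 0.0082) and COX10 (0.53 ± 0.14, adjusted p = 0.025), which acts in the making of heme a, rose on one side, while DAP1 (-0.07 ± 0.07) and MEX67 (0.03 ± 0.14) on the other side did not pass. Both genes that rose had smaller ratios in every culture than OYE3, which was chosen because it rose. Beside OYE2, SVP26 fell (-0.47 ± 0.21, adjusted p = 0.043), STB5 (-0.04 ± 0.13) and YHR180W (-0.18 ± 0.34) did not pass and ROF1 was too dim to be tested.

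**Figure D4:**
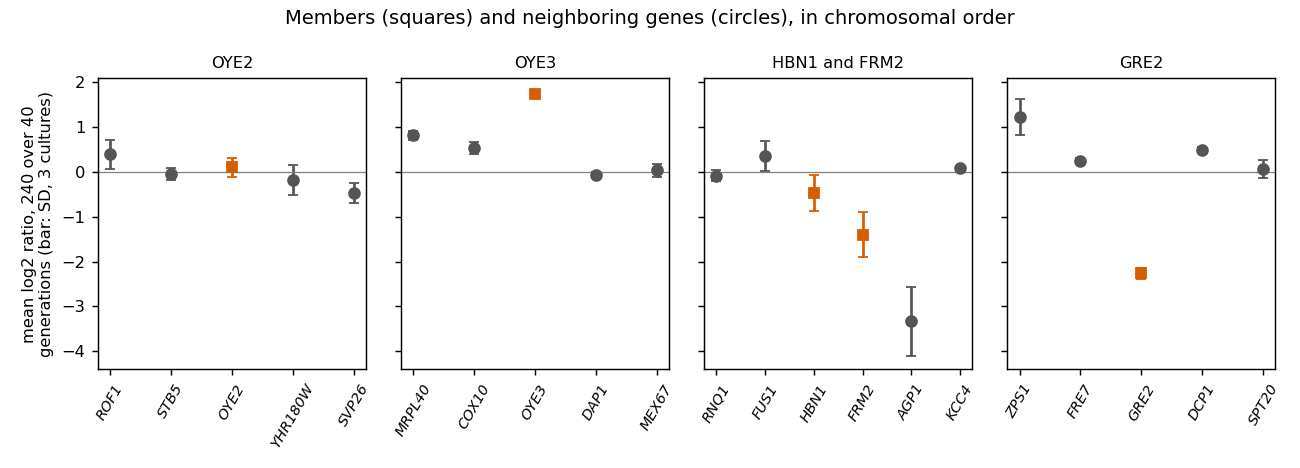
Mean log2 ratio of 240 over 40 generations (vertical axis, bar SD of 3 cultures) of the members (squares) and of the 2 genes on either side (circles) in chromosomal order (horizontal axis, not to scale). GRE2 at -2.26 has neighbors between 0.06 and 1.21, and AGP1, beside FRM2, lies at -3.33. The point of FRM2 rests on a signal not above background at 240 generations.

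The genes whose ratios on the 6 arrays were closest to those of each member were found by Euclidean distance over the log2 ratios. For OYE3 they were DDI2 (distance 0.48), FOX2 (0.52) and DDI3 (0.52), with means of 1.58, 1.58 and 1.57. DDI2 and DDI3 are near-identical genes of cyanamide breakdown, whose probes cannot be taken as separate measurements, and FOX2 acts in fatty acid oxidation. For GRE2 they were SHH3 (0.39), the glutamine permease gene GNP1 (0.58) and the stress gene DDR2 (0.60), with means of -2.15, -2.26 and -2.36.

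For FRM2 no nearest genes are given, since its ratios depended on the treatment of the background. For HBN1 the closest were HCA4, of ribosomal RNA processing (0.14), the serine synthesis gene SER33 (0.19) and ATP20, of the ATP synthase (0.24). For OYE2 they were the uncharacterized YCL068C (0.12), SEC24, of vesicle coats (0.14), and the helicase gene SGS1 (0.17). With only 3 cultures, many genes lie near a member whose ratio is small, and the distances of OYE2 and HBN1 were smaller than those of OYE3 and GRE2.

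Other carbonyl reductases were set beside GRE2 as a description only, since GRE2 was chosen because it fell. Of 15 genes of short-chain, aldo-keto and medium-chain reductases 14 were tested, of which 1 was higher (7.14%, against 13.8% of all genes tested), 3 were lower (21.4%, against 13.4%) and 10 did not pass. Their mean log2 ratios ran from -0.87 to 0.59 around a median of -0.23, against a median of -0.01 over all genes tested. The aldose reductase gene GRE3 had -0.87 ± 0.07 (SD, n = 3, adjusted p = 0.0067 with limma), BDH2, related to butanediol dehydrogenase, had -0.65 ± 0.42 (adjusted p = 0.047) and YDL124W, which encodes an alpha-keto amide reductase, -0.58 ± 0.12 (adjusted p = 0.019). GCY1, a glycerol dehydrogenase gene, was the one that rose (0.59 ± 0.15, adjusted p = 0.020). The lowest value of any of the 14 genes in a culture was -0.98. GRE2 was lower in each culture, but it was chosen for its fall, so that this comparison carries no test. None of the 4 calls was kept without Replicate 2 (adjusted p = 0.059 for GRE3, 0.062 for BDH2, 0.10 for YDL124W and 0.14 for GCY1), that of GRE3 alone was kept without Replicate 3, and with median centring 0 were higher and 6 lower.

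Of 12 genes of flavodoxin-like proteins and other flavin oxidoreductases 11 were tested. MCR1, the mitochondrial cytochrome b5 reductase gene (-0.98 ± 0.24, SD, n = 3, adjusted p = 0.0085 with limma), NDE2, an external mitochondrial NADH dehydrogenase gene (-0.97 ± 0.43, adjusted p = 0.018), and TAH18, of iron-sulfur protein assembly (-0.51 ± 0.12, adjusted p = 0.026), fell. PST2, which encodes a flavodoxin-like protein, rose (0.42 ± 0.03, adjusted p = 0.035). The other 7 did not pass, and the median was -0.19. The 1 gene higher was 9.09% of those tested, against 13.8% of all genes, and the 3 lower were 27.3%, against 13.4%. The highest mean of the 11 genes was 0.42, below that of OYE3, which was chosen because it rose. No call was kept without Replicate 2 (adjusted p = 0.059 for NDE2, 0.062 for MCR1, 0.20 for TAH18 and 0.23 for PST2), and those of MCR1 and NDE2 were kept without Replicate 3. The call of PST2 was also lost with median centring, plain subtraction and the deposited ratios.

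The transcription factor Yap1 governs a large part of the oxidative stress response of yeast, in which enzymes that remove reactive carbonyl compounds take part. Of 20 genes that include Yap1, its partners and its targets, all tested, 2 were higher (10%, against 13.8% of all genes tested), 4 were lower (20%, against 13.4%) and 14 did not pass. The median was -0.34, with -0.27, -0.28 and -0.38 in Replicates 1, 2 and 3. The enzymes of glutathione synthesis moved in opposite directions, GSH1 with -0.93 ± 0.51 (SD, n = 3, adjusted p = 0.026 with limma) and GSH2 with 0.81 ± 0.06 (adjusted p = 0.0077). TRR1, the thioredoxin reductase gene, fell (-0.60 ± 0.10, adjusted p = 0.017), and OSI1 fell (-0.79 ± 0.10, adjusted p = 0.0091). OSI1 was not above background at 240 generations on any array. By the bound used for FRM2, it was at least 1.69-fold lower there as a mean over the 3 cultures, not in each culture. Its mean was -1.75 in the deposited ratios. YAP1 itself did not pass (-0.30 ± 0.10, adjusted p = 0.091). None of the 6 calls was kept without Replicate 2 (adjusted p = 0.065 for GSH2, 0.086 for OSI1, 0.090 for GSH1 and 0.13 for TRR1), and those of GSH1, GSH2 and OSI1 were kept without Replicate 3. With median centring 1 gene was higher and 9 were lower.

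The pleiotropic drug resistance network of the transcription factors Pdr1 and Pdr3, with Yrr1, Yrm1 and Stb5, drives pumps and enzymes that deal with toxic compounds. Of 22 of its genes 21 were tested, of which 12 were lower (57.1%, against 13.4% of all genes tested), none was higher and 9 did not pass. This list, like the others, was chosen with earlier results of these data known, so that its share is a description and not a test. The median was -0.72, with -1.17, -0.61 and -0.56 in Replicates 1, 2 and 3. Among the genes that fell were the drug pump genes PDR5 (-3.76 ± 0.87, SD, n = 3, adjusted p = 0.0030 with limma), PDR10 (-2.11 ± 0.87, adjusted p = 0.011), SNQ2 (-1.95 ± 0.34, adjusted p = 0.0027) and PDR15 (-1.94 ± 0.76, adjusted p = 0.010). PDR5 had values of -4.76, -3.11 and -3.42, and in each of these 4 genes Replicate 1 was the lowest. Replicate 1 was the highest in HBN1 and in FRM2, which was not above background at 240 generations. RSB1, a gene of sphingoid base release, passed background at 240 generations on only 3 of 6 arrays. Its mean was -1.78 here (adjusted p = 0.0035 with limma) and -3.21 in the deposited ratios.

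Among the regulators, named here after their values were seen, PDR1 (-1.14 ± 0.55, adjusted p = 0.019) and PDR3 (-0.72 ± 0.25, adjusted p = 0.017) fell by limma's test. YRR1 (-0.29 ± 0.18), YRM1 (-0.10 ± 0.16), STB5, the neighbor of OYE2, and RDR1 (0.07 ± 0.08) did not pass. None of the 21 genes was called higher, and their highest mean was 0.14, that of FLR1. OYE3, at 1.74, lay above it, but it was chosen because it rose, so that this comparison carries no test. FLR1 is also among the 20 genes of the Yap1 list. Of the 12 calls 7 were kept without Replicate 2, those of PDR5, PDR10, SNQ2, PDR15, YOR1, RSB1 and ICT1, and all but that of TPO1 (adjusted p = 0.076) were kept without Replicate 3. The calls of PDR1 (adjusted p = 0.072) and PDR3 (adjusted p = 0.093) were lost without Replicate 2. All 12 passed with the deposited ratios.

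**Figure D5:**
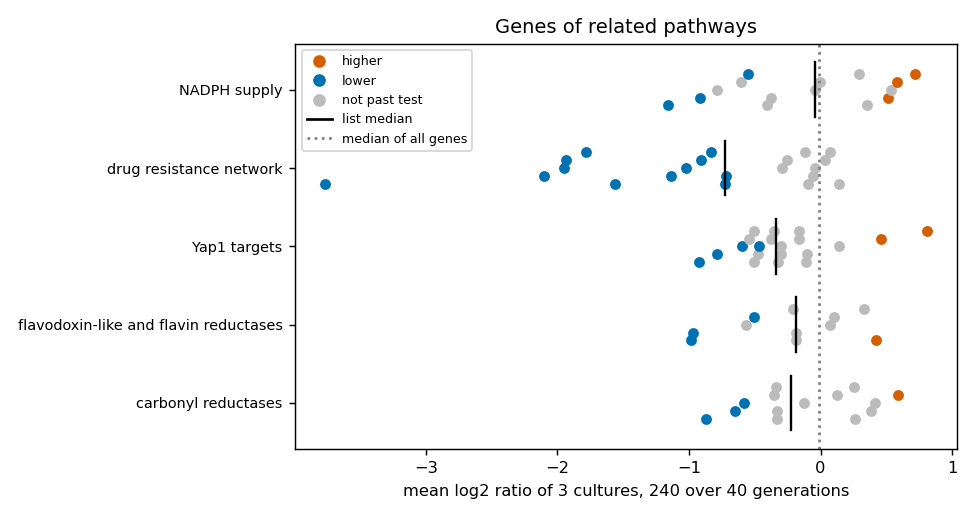
Mean log2 ratio of 240 over 40 generations over 3 cultures (horizontal axis) of the tested genes of 5 lists (vertical axis), colored by call, with a line at each list's median and a dotted line at the median of all genes tested, -0.01. The drug resistance network lies farthest to the left, with 12 genes lower and none higher. The lists were chosen with earlier results of these data known.

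NADPH is the electron donor of Oye2, Oye3 and Gre2. A list of 15 genes of NADPH supply held some, such as SOL3, whose enzymes do not make NADPH themselves. Of the 15, 3 were higher (20%, against 13.8% of all genes tested), 3 were lower (20%, against 13.4%) and 9 did not pass, with a median of -0.04. IDP1, the mitochondrial isocitrate dehydrogenase gene (-1.16 ± 0.84, SD, n = 3, adjusted p = 0.043 with limma), and MIS1, of mitochondrial folate metabolism (-0.92 ± 0.18, adjusted p = 0.0081), fell. IDP3, the peroxisomal isocitrate dehydrogenase gene (0.72 ± 0.36, adjusted p = 0.028), and SOL3, of the pentose phosphate pathway (0.58 ± 0.36, adjusted p = 0.047), rose. ZWF1, the first enzyme of that pathway, did not pass, with -1.83 in Replicate 1, -0.11 in Replicate 2 and 0.14 in Replicate 3. IDP3 passed background at 40 generations on 3 of 6 arrays. Its mean was 1.39 in the deposited ratios. None of the 6 calls was kept without Replicate 2 (adjusted p = 0.053 for MIS1, 0.084 for IDP1, 0.13 for SOL3 and 0.16 for IDP3), and those of MIS1, IDP1 and IDP3 were kept without Replicate 3. With median centring, plain subtraction or the deposited ratios 1 gene was higher.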

How the data were processed

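The authors hybridized 6 two-color Agilent arrays and read the spots with GenePix Pro. The deposited files hold pixel intensities of each spot and its local background in Cy5 and Cy3, without normalization, and for each spot the percent of its pixels at saturation, with a flag where no spot was found. Which dye carried which time point was taken from the array file names, and the dye-swap arrays, with the signs turned, gave r = 0.96, 0.95 and 0.95 across genes. The authors' deposited log2 ratios, made in Acuity by a normalization not given in the sources used here, averaged over dye swaps, correlated across genes with the ratios used here (r = 0.96 to 0.98), which sets their direction as 240 over 40 generations. Their 277, 332 and 24 values of exactly 0 were treated as missing.

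In R 4.3.3 with limma 3.58.1, medians were background-corrected with normexp (offset 50), loess-normalized within arrays with control spots at weight 0, and averaged over the 2 spots of a gene and the 2 arrays of a culture. The ratios of the 3 cultures were compared with 0 by lmFit and eBayes. Tested were 5571 genes above background at 1 time point at least on 4 or more of 6 arrays, with Benjamini-Hochberg adjustment at 0.05. Without adjustment, 2402 genes had a p under 0.05. ACT1 had a log2 ratio of 0.02 ± 0.11 (SD, n = 3). The fit was also run on simulated data, with an outcome not given here, and the number of cultures, 3, limits the precision. Of 6252 genes 5776 matched the RefSeq annotation (R64), used for names and gene order, and 4 genes were left out. Figures were drawn in Python 3.11.15.

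The members and lists were chosen with earlier results of these data known. Named are the members, in each list up to 4 genes with the largest change past the test, the 2 genes on each side of a member, the 3 genes nearest to it over the 6 arrays (not for FRM2, not above background at 240 generations), and ACT1. Exceptions are marked in the text or are listed by name for completeness. Alternatives were other background corrections, median centring, arrays scaled to each other, no spots flagged as not found, other filters on dim probes, another prior, either dye orientation, time points treated as unpaired, the deposited ratios and each replicate left out. The OYE2 spots taken singly were added after seeing the data. Slides could not be used as a block, since the array files used here name none. Promoter motifs were not examined.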

Additional observations from a re-analysis of the deposited data

How the results depend on the processing

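Over the alternatives run for each gene, the mean log2 ratio of OYE3 remained above 0 in 11 of 11, that of OYE2 in 13 of 13, and those of FRM2, HBN1 and GRE2 below 0 in 11 of 11. All alternatives reused the same cultures, and OYE3, FRM2 and GRE2 were chosen for these signs, so that the counts carry no test. The cultures themselves did not all share the sign of the mean, with Replicate 1 at -0.14 in OYE2 and at 0.00 in HBN1. OYE2 stayed between 0.03 and 0.22 and HBN1 between -0.69 and -0.34, within 1 SD of the reported value. With plain subtraction of the background the means were 1.81 for OYE3, -2.70 for FRM2, -2.49 for GRE2 and 2.23 for HBN1 minus FRM2, and with the authors' deposited log2 ratios they were 1.83, -2.70, -2.50 and 2.23. HBN1 minus FRM2 was 1.15 with no background correction and 0.77 with median centring, under which OYE3 had 1.64.

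The calls depended on the cultures. Leaving out 1 replicate at a time gave 115 to 1249 genes higher and 155 to 1275 lower, lowest without Replicate 2 and highest without Replicate 1, and of the 1513 calls 268 were kept without Replicate 2 and 604 without Replicate 3. Without pairing of the time points, that is with no replicate block, 193 genes were higher and 250 lower. With 1 replicate left out, the lists had 0 to 5 genes higher and 0 to 7 lower (carbonyl reductases), 0 to 1 and 0 to 3 (flavin oxidoreductases), 0 to 3 and 0 to 10 (Yap1), 0 to 2 and 7 to 12 (drug resistance) and 0 to 4 and 0 to 4 (NADPH supply). With median centring, 0 carbonyl reductases were higher and 6 lower, 0 flavin oxidoreductases were higher, 1 Yap1 gene was higher and 9 were lower, and 1 NADPH gene was higher. With plain subtraction 0 flavin oxidoreductases and 1 NADPH gene were higher, and with the deposited ratios 0 flavin oxidoreductases, 1 Yap1 gene and 1 NADPH gene. A trended and robust prior, arrays scaled to each other, the omission of spots not found and both filters on dim probes gave counts of genes within 1.5 times the reported ones. The cause of these shifts was not tested. A slide block was not run, since the array files used here name no slides.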
